A study of Rattus norvegicus with 4 samples.

Results

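A set of 9 genes of the complement system was followed in cultured rat microvessels, chosen by gene symbol alone: C1qa, C1qb, C1r, C1s, C2, C3, Cfb, Cfd and Serping1. All 9 were found among the 23608 gene entries of the deposited count table, and 8 reached the level at which genes were tested. The vascular cells were primary, wild type and taken from subcutaneous soft connective tissue. Their extracellular matrix was stiff or soft, and A83-01, a compound that blocks the kinases of type I TGF-beta receptors, was present or absent. The 4 groups were stiff with A83-01, stiff, soft with A83-01 and soft, with 1 messenger RNA library each. The study asked how matrix stiffness and TGF-beta inhibition act on small vessels, and on pericytes, their wall cells, as these turn into myofibroblasts. The labels state neither the stiffness values, the dose, nor whether the libraries came from the same animals.

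Complement is a chain of blood and tissue proteins that marks surfaces for removal and calls in immune cells. In the classical pathway the recognition protein C1q carries the proteases C1r and C1s, which cut C4 and C2; the lectin pathway reaches the same step through the MASP proteases. In the alternative pathway factor D cuts factor B, and both routes meet at C3, the most abundant complement protein of plasma. Most circulating complement is made by the liver, macrophages make C1q, and fibroblasts and endothelial cells make several components locally, often in response to inflammatory cytokines.

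Total counts were between 32271844 and 33416200 per library. No group has a second library, so a ratio of 2 libraries lacks a replicate check. Its 95% interval covers counting error only, and PCR copies could not be separated from independent molecules. In bulk RNA, fewer cells of a type and less RNA per cell cannot be told apart. The labels name both stiff libraries in another form than both soft libraries, so stiffness and a separate preparation cannot be told apart. Stiffness and A83-01 were each tested over all 4 libraries, 2 against 2, in edgeR's quasi-likelihood test with the other factor in the model and 1 residual degree of freedom. That residual holds the gap between the A83-01 ratios on stiff and soft matrix, not spread between replicates. The test does not rest on it alone, since edgeR also draws on the residuals of the other genes tested. CPM are read counts scaled to a common library total, here with trimmed means of M-values (TMM). Levels of different genes were compared in the authors' FPKM, which also divide by transcript length. The endothelial markers Cdh5 and Tie1 and the pericyte marker Pdgfrb were present in all 4 libraries, at 730 to 1325, 235 to 447 and 881 to 1591 CPM.

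Levels differed widely among the 9 genes. By FPKM, C1r was the highest member in every library, at 500 in stiff with A83-01, 157 in stiff, 848 in soft with A83-01 and 742 in soft. Serping1, C1s and C2 followed in some order in both stiff libraries and in soft with A83-01, while in soft C3 (114 FPKM) stood above C2 (71.6 FPKM). C1qb was the lowest member in both soft libraries and in stiff with A83-01, and C3 was the lowest in stiff, at 0.153 FPKM. Together the 9 genes took 0.341% of all counts in stiff with A83-01 and 0.0859% in stiff, against 0.634% in soft with A83-01 and 0.573% in soft. Mitochondrial genes took 5.59% of counts in stiff with A83-01 and 3.86% in stiff, against 6.35% in soft with A83-01 and 4.72% in soft, also lowest in untreated stiff and in the library order of Cfd; their part in the complement values was not tested.

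**Figure D1:**
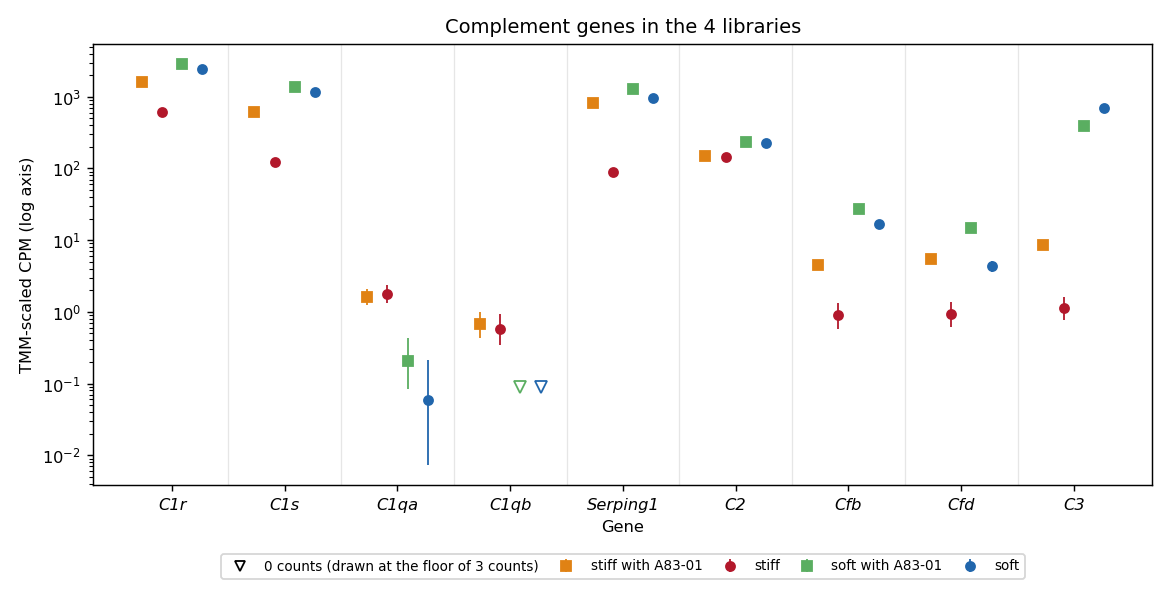
TMM-scaled CPM (log axis) of the 9 complement genes in each library; bars are exact Poisson 95% intervals and open triangles mark 0 counts, drawn at the floor of 3 counts. The untreated stiff library is the lowest point for 7 of the genes, and C1qa and C1qb are higher in both stiff libraries than in both soft ones.

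C3 showed the widest range. It had 302 counts (8.47 CPM) in stiff with A83-01 and 33 counts (1.14 CPM) in stiff, against 12960 counts (387 CPM) in soft with A83-01 and 23280 counts (696 CPM) in soft. Both stiff libraries lay far below both soft libraries. C3 was 613-fold lower in stiff than in soft (436 to 890) and 45.7-fold lower with A83-01 in both libraries (40.7 to 51.3), with the 95% counting interval in parentheses here and below. In the additive model C3 fell on stiff matrix, with a log2 difference of −7.13 (SE 1.05) and a Benjamini-Hochberg adjusted p = 0.0339 (edgeR). The inhibitor went with opposite differences on the 2 matrices: C3 was 7.46-fold higher with A83-01 on stiff matrix (5.20 to 11.0) and 1.80-fold lower with A83-01 on soft matrix (1.76 to 1.84).

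The promoter of C3 is shown because this gene moved most, and those of C1r, Cfd and C1qa because they are the other members with distinct patterns for which the RefSeq promoter table (build GRCr8) has an entry. It had entries for 5 of the 9 members; C1s, C2, Cfb and Serping1 had none. Each sequence runs 5′ to 3′ along the gene, from 250 bases before the annotated start to 50 after it. Capitals mark matches, on either strand, to a kappa-B frame (GGG and CC with any 5 bases between), a C/EBP frame TTGCNNAA, a STAT frame TTCNNNGAA or an interferon-stimulated element frame (GAAA and GAAA with any 2 bases between); overlapping matches run together. The locations are chr9:2201290-2201589 (minus strand) for C3, chr4:159098763-159099062 (plus strand) for C1r, chr7:10465447-10465746 (minus strand) for Cfd and chr5:154419884-154420183 (minus strand) for C1qa.
C3: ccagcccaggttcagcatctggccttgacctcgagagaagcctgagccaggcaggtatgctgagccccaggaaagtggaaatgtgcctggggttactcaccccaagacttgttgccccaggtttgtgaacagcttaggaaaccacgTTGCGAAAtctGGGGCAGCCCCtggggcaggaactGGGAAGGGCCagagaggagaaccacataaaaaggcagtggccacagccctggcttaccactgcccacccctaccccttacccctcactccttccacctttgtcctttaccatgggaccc
C1r: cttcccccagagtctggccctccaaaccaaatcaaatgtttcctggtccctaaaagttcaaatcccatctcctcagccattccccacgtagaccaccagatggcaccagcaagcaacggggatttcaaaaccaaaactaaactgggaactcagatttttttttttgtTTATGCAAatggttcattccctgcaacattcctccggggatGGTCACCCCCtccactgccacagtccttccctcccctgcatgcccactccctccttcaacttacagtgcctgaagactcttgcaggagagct
Cfd: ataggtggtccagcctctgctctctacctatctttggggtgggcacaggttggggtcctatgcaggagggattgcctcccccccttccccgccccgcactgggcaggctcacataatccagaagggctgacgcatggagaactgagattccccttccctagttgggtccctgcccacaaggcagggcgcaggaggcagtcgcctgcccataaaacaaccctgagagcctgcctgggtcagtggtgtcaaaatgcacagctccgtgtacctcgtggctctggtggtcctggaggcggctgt
C1qa: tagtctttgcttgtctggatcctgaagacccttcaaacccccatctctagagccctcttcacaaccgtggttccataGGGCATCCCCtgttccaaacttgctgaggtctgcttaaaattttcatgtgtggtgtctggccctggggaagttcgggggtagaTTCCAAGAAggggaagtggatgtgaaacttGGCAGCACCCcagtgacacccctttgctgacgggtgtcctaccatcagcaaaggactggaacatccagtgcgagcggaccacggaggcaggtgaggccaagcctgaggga
The C/EBP frame was in C3 and C1r among the 5 members with a promoter and in 10.6% of all 33469 promoters. In C3 it read TTGCGAAA and began at position −104 relative to the annotated start. The kappa-B frame was in 4 of the 5, all but Cfd, and in 47.3% of all promoters. The STAT frame was in C1qa alone of the 5 and in 8.87% of all promoters, and the interferon-stimulated element frame was in none of the 5 and in 3.92% of all promoters. These matches describe letters in a short window and not binding.

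Cfb and Cfd, the protease components of the alternative pathway, were low and also fell on stiff matrix. Cfb encodes factor B, the catalytic part of the C3-cleaving enzyme. It had 4.54 CPM in stiff with A83-01 and 0.894 CPM in stiff, against 27.2 CPM in soft with A83-01 and 16.7 CPM in soft. Cfb was lower in both stiff libraries than in both soft ones, 18.7-fold without the inhibitor (12.6 to 28.9) and 5.98-fold with it (5.06 to 7.12). The additive difference was −3.27 (log2, SE 0.424), with an adjusted p = 0.0265 in edgeR's quasi-likelihood test. Cfd encodes factor D, also known as adipsin for its release by fat cells. Its level was 5.50 CPM in stiff with A83-01 and 0.929 CPM in stiff, against 14.6 CPM in soft with A83-01 and 4.30 CPM in soft. The stiff and soft groups overlapped for Cfd, since stiff with A83-01 lay above soft, while both A83-01 libraries lay above both untreated ones. Within each inhibitor condition Cfd was lower on stiff matrix, 4.63-fold without A83-01 (3.05 to 7.27) and 2.65-fold with it (2.24 to 3.14). It fell in the additive model, with a log2 difference of −1.74 (SE 0.287) and an adjusted p = 0.0420 in edgeR's test. With the size factors of DESeq2 in place of TMM, that adjusted p of Cfd was 0.0548.

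C1r and C1s encode the serine proteases of the first complement complex, and the 2 genes lie next to each other in the RefSeq table. C1r had 1606 CPM in stiff with A83-01 and 619 CPM in stiff, against 2838 CPM in soft with A83-01 and 2473 CPM in soft. C1s had 608 CPM in stiff with A83-01 and 122 CPM in stiff, against 1350 CPM in soft with A83-01 and 1174 CPM in soft. For both genes the stiff libraries were below the soft ones, and the untreated stiff library stood apart as the lowest. In stiff against soft C1r was 4.00-fold lower (3.93 to 4.06) and C1s 9.63-fold lower (9.31 to 9.97). With A83-01 in both libraries they were 1.77-fold (1.75 to 1.79) and 2.22-fold (2.18 to 2.26) lower. Neither passed the additive test, with adjusted p = 0.0988 for C1r and 0.0986 for C1s in edgeR's quasi-likelihood test. The FPKM ratio of C1r to C1s was 2.78 in stiff with A83-01 and 5.34 in stiff, against 2.21 in both soft libraries. A RefSeq locus without a gene name, LOC102553847, overlaps C1r, and the library protocol names no strand-marking step, so their reads may not have been told apart.

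Serping1 encodes the C1 inhibitor, a serpin that inactivates C1r, C1s and the MASP proteases. It had 810 CPM in stiff with A83-01 and 89.5 CPM in stiff, against 1262 CPM in soft with A83-01 and 975 CPM in soft. Both stiff libraries were lower than both soft libraries, but stiff with A83-01 lay close to them and the untreated stiff library far below. The fold was 10.9 lower in stiff than in soft (10.5 to 11.3) and 1.56 lower with A83-01 in both (1.54 to 1.58). The additive test did not call it, at log2 −2.04 (SE 0.744, adjusted p = 0.182, edgeR quasi-likelihood test). The FPKM ratio of Serping1 to C1r, the inhibitor to its target, was 0.739 in stiff with A83-01 and 0.212 in stiff, against 0.652 in soft with A83-01 and 0.578 in soft.

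C2 encodes the classical pathway counterpart of factor B and varied least of the members. It had 151 CPM in stiff with A83-01 and 146 CPM in stiff, against 233 CPM in soft with A83-01 and 224 CPM in soft. C2 was 1.54-fold lower on stiff matrix without the inhibitor (1.48 to 1.60) and with it (1.49 to 1.59), under the 2-fold threshold. The additive test gave log2 −0.62 (SE 0.143, adjusted p = 0.0802, edgeR quasi-likelihood test). C2 and Cfb are neighbours in the RefSeq table, and the FPKM ratio of C2 to Cfb was 42.5 in stiff with A83-01 and 217 in stiff, against 10.8 in soft with A83-01 and 16.9 in soft. The gene Zbtb12 overlaps C2 in that table.

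C1qa and C1qb encode chains of the recognition protein C1q and stood at very low levels with the opposite order. C1qa had 58 counts (1.63 CPM) in stiff with A83-01 and 52 counts (1.79 CPM) in stiff, against 7 counts (0.209 CPM) in soft with A83-01 and 2 counts (0.0598 CPM) in soft. C1qb had 24 counts in stiff with A83-01 and 17 counts in stiff, against 0 counts in both soft libraries. Both genes were higher in both stiff libraries than in both soft ones. The ratio of C1qa in stiff to soft was 29.9 (7.88 to 254), and with A83-01 in both it was 7.79 (3.55 to 20.2). C1qb was at least 6.53-fold higher in stiff than in soft, and at least 7.52-fold higher with A83-01 in both, against a floor of 3 counts in the soft library. C1qa entered the test through its level in the stiff libraries and had to differ, and it missed the threshold with an adjusted p = 0.0543 in edgeR's quasi-likelihood test. C1qb did not reach the minimum of 1 CPM in any library and was not tested. The third chain gene, C1qc, had 21 counts in stiff with A83-01 and 14 in stiff, against 0 in both soft libraries. Macrophage markers were divided. The lysozyme gene Lyz2 had the same order as C1q, with 6.09 CPM in stiff with A83-01 and 23.5 CPM in stiff, against 1.01 CPM in soft with A83-01 and 1.58 CPM in soft. The receptor gene Csf1r had 6.85 CPM in stiff with A83-01 and 3.96 CPM in stiff, against 9.34 CPM in soft with A83-01 and 9.29 CPM in soft. Adgre1, the gene of the F4/80 antigen, had 2.39 CPM in stiff with A83-01 and 0.447 CPM in stiff, against 37.4 CPM in soft with A83-01 and 24.5 CPM in soft. The common leukocyte gene Ptprc had 1.21 CPM in stiff with A83-01 and 0.791 CPM in stiff, against 3.76 CPM in soft with A83-01 and 2.90 CPM in soft. The 13 macrophage markers, C1qc included, summed to 117 CPM in stiff with A83-01 and 95.4 CPM in stiff, against 192 CPM in soft with A83-01 and 141 CPM in soft. In the additive edgeR model Lyz2 rose on stiff matrix (background 2.35%) and Adgre1 fell (background 3.29%), 1 each of 11 tested markers. Cd74 was called lower as well, but entered the test through the soft libraries and had to differ. The part of macrophages in the C1q values was not tested.

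Counted together, 6 of the 9 members were at least 2-fold lower in stiff than in soft, where 8.58% of the 13634 genes tested were. The 6 were C1r, C1s, C3, Cfb, Cfd and Serping1. C1qa and C1qb were at least 2-fold higher, where 5.33% of tested genes were. No count of C1qa or C1qb given here is support, since C1qb was not tested and the filter admitted C1qa through the stiff libraries. With A83-01 in both libraries, 4 of the 9 were at least 2-fold lower on stiff matrix (background 6.72%), namely C1s, C3, Cfb and Cfd, and C1qa and C1qb were at least 2-fold higher (background 6.88%). Both stiff libraries lay below both soft ones for 6 of the 8 tested members, C1r, C1s, C2, C3, Cfb and Serping1, where 27.1% of all tested genes did so. Both lay above for C1qa, where 26.5% of genes did. In the additive model C3, Cfb and Cfd fell on stiff matrix, 3 of the 8 tested members (background 3.29%), and 0 rose (background 2.35%). The median log2 difference of the 8 was −1.89, beside 0.01 for all genes tested. At an unadjusted p of at most 0.05, edgeR had 7 of the 8 lower (background 13.2%) and C1qa higher (background 12.1%). DESeq2's Wald test called C1r, C2, C3, Cfb and Cfd lower (background 5.41%) and C1qa higher (background 4.21%). Both C1qa calls are no support, since the filter admitted it through the stiff libraries. Limma-voom called C1s, C3, Cfb and Cfd lower (background 4.56%) and 0 higher (background 3.43%). Without the inhibitor in the model, edgeR called 0 members in either direction.

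**Figure D2:**
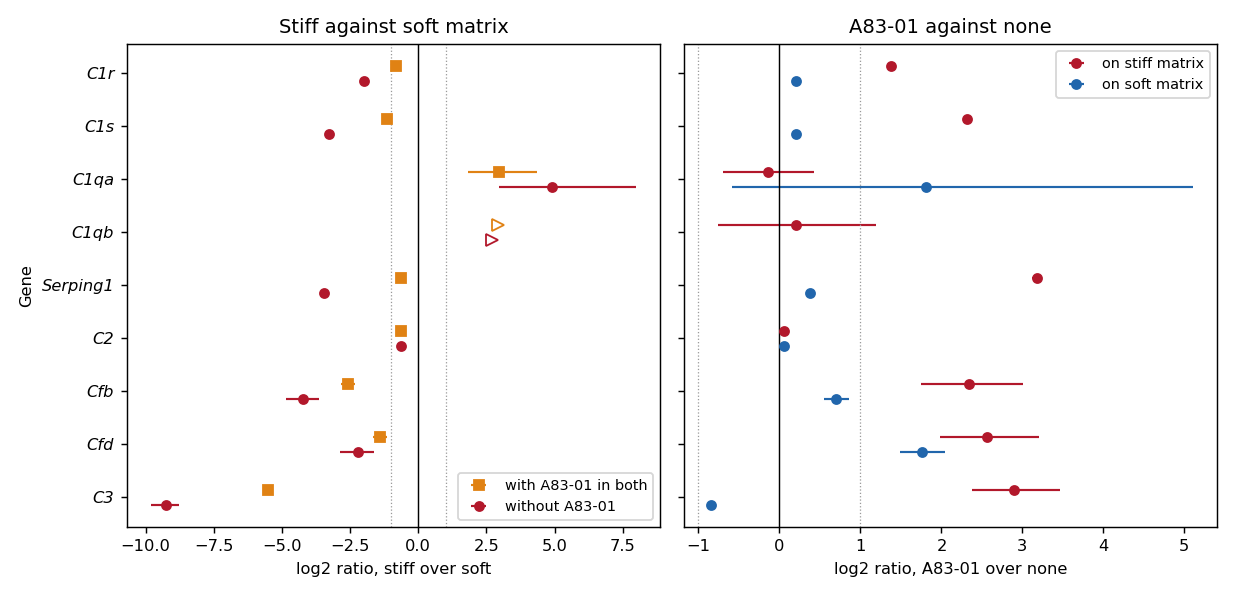
Log2 ratios of TMM-scaled CPM for each complement gene, stiff over soft (left) and A83-01 over none (right), with 95% counting intervals as bars, dotted lines at 2-fold and open arrows for lower bounds against 0 counts. The ratios of C1r, C1s, Serping1, Cfb, Cfd and C3 lie left of 0 in both stiffness comparisons, and their A83-01 ratios lie further right on stiff than on soft matrix.

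In these libraries most members had a larger A83-01 ratio on stiff than on soft matrix. On stiff matrix 6 of the 9 were at least 2-fold higher with A83-01 than without (background 7.8%) and 0 were at least 2-fold lower (background 4.47%). On soft matrix 1 was at least 2-fold higher (background 2.18%) and 0 were at least 2-fold lower (background 2.44%). On stiff matrix Serping1 was 9.04-fold higher with A83-01 (8.68 to 9.41), C3 7.46-fold, Cfd 5.92-fold (3.95 to 9.21), Cfb 5.08-fold (3.34 to 8.01), C1s 4.99-fold (4.82 to 5.17) and C1r 2.60-fold (2.55 to 2.64). On soft matrix Cfd was 3.39-fold higher with A83-01 (2.81 to 4.11), Cfb 1.63-fold (1.46 to 1.81), Serping1 1.29-fold (1.28 to 1.31), and C1r and C1s 1.15-fold each (1.14 to 1.16 and 1.13 to 1.17). C2 was 1.04-fold higher with A83-01 on both matrices, with intervals of 0.997 to 1.08 on stiff and 1.00 to 1.07 on soft. The stiff log2 ratio of C2 was 0.34 when scaled to total counts, where the median of all genes was 0.31, beside 0.02 with TMM. For C1qa the ratio of A83-01 to none was 0.910 on stiff (0.615 to 1.35) and 3.5 on soft matrix (0.666 to 34.5), and its stiff ratio changed direction with total counts. For C1qb it was 1.15 on stiff matrix (0.593 to 2.28), and no ratio could be formed from 0 counts in both soft libraries. None of these C1q intervals excluded equality.

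The gap between both A83-01 ratios, as log2 on stiff minus log2 on soft, was largest for C3 at 3.68 (3.16 to 4.20). It was 2.80 for Serping1 (2.74 to 2.87), 2.12 for C1s (2.06 to 2.17), 1.57 for Cfb (0.95 to 2.19), 1.18 for C1r (1.15 to 1.21) and 0.74 for Cfd (0.11 to 1.38). The gap was 0.00 for C2 (−0.07 to 0.08) and −1.29 for C1qa (−3.62 to 1.04), whose intervals include 0. An absolute gap above 1 was found for 6 of the 8 tested members and for 10.2% of all genes tested, and the median gap of all genes was 0.02. The 6 were C3, Serping1, C1s, Cfb and C1r, with gaps above 0, and C1qa, with a gap below 0. The place of C1qa in this count is no support, since it had few counts and the filter admitted it through the stiff libraries. These intervals cover counting error, and with 1 library in each group the gap itself could not be tested.

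Over both matrices together, edgeR's test called 0 of the 8 tested members for A83-01, where it called 0% of all genes up and 0.044% down. At an unadjusted p of at most 0.05, Cfb and Cfd were higher (background 7.25%) and 0 lower (background 6.04%). DESeq2's Wald test called Cfb and Cfd higher (background 1.61%) and 0 lower (background 1.79%), and limma-voom called 0 in either direction (background 0% higher and 0.022% lower). Both A83-01 libraries lay above both untreated ones for Cfd, 1 of the 8, where 16.7% of genes did so. The largest additive difference was that of Cfd, at log2 2.10 (SE 0.289, adjusted p = 0.110, edgeR quasi-likelihood test). All 8 additive differences were above 0, with a median of 1.02 beside 0.01 for all genes tested. On each matrix alone 7 of the 8 log2 ratios were above 0, all but that of C1qa on stiff and that of C3 on soft matrix. A list of 5 TGF-beta target genes had 0 calls for A83-01, with additive log2 differences all below 0 and a median of −1.11. The collagen gene Col1a1 had 19079 CPM in stiff with A83-01 and 69475 CPM in stiff, against 17577 CPM in soft with A83-01 and 39252 CPM in soft. The inhibitory SMAD gene Smad7 had 7.13 CPM in stiff with A83-01 and 12.5 CPM in stiff, against 10.9 CPM in soft with A83-01 and 16.4 CPM in soft. Both genes were lower with A83-01 on each matrix.

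**Figure D3:**
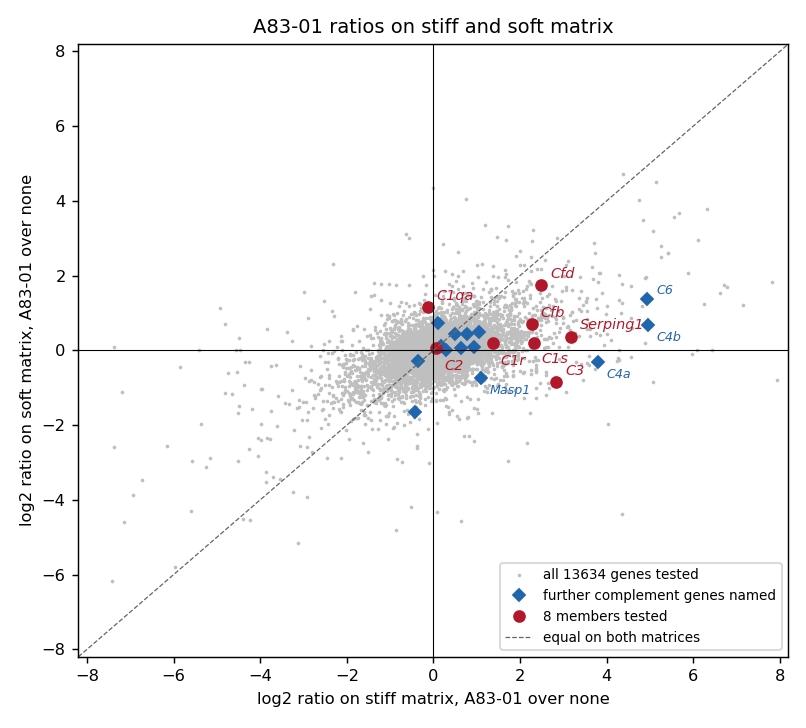
Log2 ratio of A83-01 over none on stiff matrix (x axis) and on soft matrix (y axis) for the 13634 genes tested (grey), 8 complement members (red circles) and further complement genes (blue diamonds); the dashed line marks equal ratios. Serping1, C3, C1s, Cfb, C1r and Cfd lie right of the line, C2 near 0 on both axes and C3 below 0 on the y axis.

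The wider complement system was followed in a list of 44 further genes, of which 41 were in the table, 33 had at least 1 count and 21 were tested. In the additive edgeR model 4 were called lower on stiff matrix (background 3.29%), C3ar1 among them, and 2 rose (background 2.35%), and the median log2 difference of the 21 was −1.04, beside 0.01 for all genes tested. In stiff against soft, 12 of the 21 were at least 2-fold lower (background 8.58%) and 2 at least 2-fold higher (background 5.33%). With A83-01 in both libraries 7 were lower (background 6.72%) and 3 higher (background 6.88%). C3ar1 is in both counts of lower genes. It entered the test through the soft libraries and had to differ, so its place there is no support. C4a and C4b, near-identical copies, were counted as separate genes in the 12 and in the 6 that follow. On stiff matrix A83-01 went with 6 genes past 2-fold upward (background 7.8%) and with 0 downward (background 4.47%). The 6 were C4a, C4b, C6, Masp1, Clu and Vtn, the last named after its values were seen. Vtn reached 1 CPM in stiff with A83-01 alone, at 9.03 CPM, and had to differ there. Its place in this count, and among those higher on stiff matrix with A83-01 in both, is no support. On soft matrix A83-01 went with C6 past 2-fold upward (background 2.18%) and with 2 genes downward (background 2.44%). The additive edgeR test called 0 of the 21 for A83-01.

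At the start of the classical and lectin pathways, C4a and C4b encode C4. They are near-identical copies whose separate counts are uncertain, so their counts were summed. The sum was 135 CPM in stiff with A83-01 and 6.33 CPM in stiff, against 73.4 CPM in soft with A83-01 and 63.0 CPM in soft. The untreated stiff library was again lowest, and stiff with A83-01 was the highest of the 4. The sum was 9.95-fold lower in stiff than in soft (8.56 to 11.6), 1.84-fold higher on stiff matrix with A83-01 in both (1.75 to 1.93), and 21.3-fold higher with A83-01 than without on stiff matrix (18.4 to 24.9). On soft matrix it was 1.17-fold higher with A83-01 (1.10 to 1.24). Masp1, a protease of the lectin pathway, had 31.9 CPM in stiff with A83-01 and 14.9 CPM in stiff, against 90.7 CPM in soft with A83-01 and 151 CPM in soft. The related Masp2 fell on stiff matrix, by 1.58 on the log2 scale (SE 0.253), and so did C1rl, a C1r-like gene, by 1.79 (SE 0.178).

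Genes of the terminal pathway, whose proteins build the membrane pore, divided. C6 had 81.0 CPM in stiff with A83-01 and 2.58 CPM in stiff, against 102 CPM in soft with A83-01 and 39.7 CPM in soft. C6 was 31.4-fold higher with A83-01 on stiff matrix (25.0 to 40.0) and 2.58-fold higher on soft matrix (2.42 to 2.75). C7 had 156 CPM in stiff with A83-01 and 81.1 CPM in stiff, against 33.1 CPM in soft with A83-01 and 31.2 CPM in soft. C7 was higher in both stiff libraries and rose in the additive model, with a log2 difference of 1.81 (SE 0.239) and an adjusted p = 0.0276 in edgeR's test. C8a and C8b had 0 counts in every library, and C5 and C9 at most 3 counts in any.

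Regulators also divided by gene. Cfi, the gene of factor I, a protease that cuts the active forms of C3 and C4, had 3.31 CPM in stiff with A83-01 and 4.44 CPM in stiff, against 3.76 CPM in soft with A83-01 and 11.8 CPM in soft. The untreated soft library stood above the other 3, and Cfi was 3.15-fold lower with A83-01 than without on soft matrix (2.57 to 3.88). Cd55, the decay-accelerating factor of cell surfaces, fell on stiff matrix, with an additive log2 difference of −1.95 (SE 0.135) and an adjusted p = 0.00848 in edgeR's test. Clu, the gene of the pore inhibitor clusterin, rose by 1.69 (SE 0.179). The surface regulators Cd59 and Cr1l, the second known as Crry in rodents, did not pass, with additive log2 differences of −0.05 and −0.26. The receptor gene C3ar1 for the C3a peptide entered the test through its level in the soft libraries and had to differ, so its call is no support. It had 12 counts in stiff with A83-01 and 9 counts in stiff, against 113 counts in soft with A83-01 and 67 counts in soft. Itgb2, the shared chain of the complement receptors of leukocytes, did not pass, with an additive log2 difference of −0.74.

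**Figure D4:**
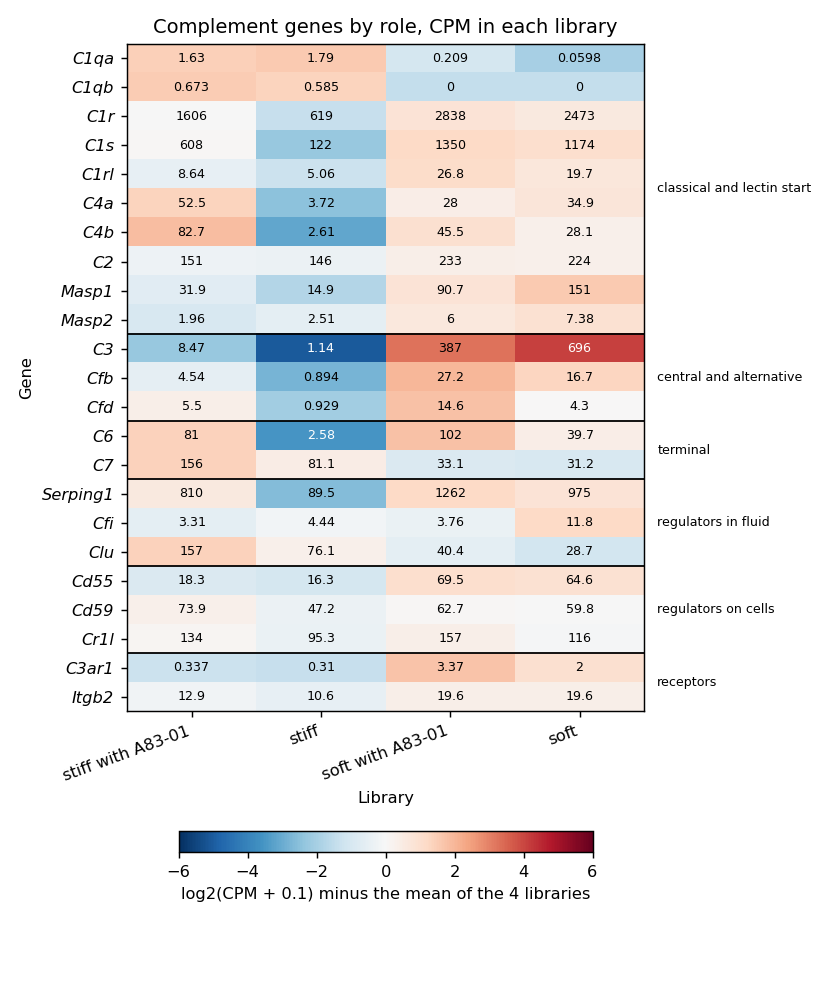
CPM (printed) of complement genes in each library, grouped by role; colour shows log2(CPM + 0.1) minus the mean of the 4 libraries. The untreated stiff column is the lowest for C1r, C1s, C4a, C4b, Cfb, Cfd, C3, C6 and Serping1, while C1qa, C1qb, C7 and Clu are higher in both stiff columns.

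The genes whose pattern over the 4 libraries lay closest to that of C3, among 9754 genes with at least 10 CPM in at least 1 library, were Lcn2, Cxcl2, Slpi, F5 and Cxcl6. Likeness was the Euclidean distance between log2 CPM values centred on each gene's mean, which was 0.962 for Lcn2 and 2.04 for Cxcl6. Lcn2 had 19.2 CPM in stiff with A83-01 and 4.30 CPM in stiff, against 1491 CPM in soft with A83-01 and 1205 CPM in soft. Slpi had 6.56 CPM in stiff with A83-01 and 0.482 CPM in stiff, against 477 CPM in soft with A83-01 and 318 CPM in soft. Unlike C3, both were higher with A83-01 than without on soft matrix. Cxcl2 and Cxcl6 were near equal there, at 14.7 and 117 CPM in soft with A83-01 and 13.9 and 113 CPM in soft. F5 was lower, as C3 was, with 18.2 CPM in soft with A83-01 and 41.8 CPM in soft.

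Cytokines and factors known to act on complement genes were measured alongside. Of 17 tested genes of that list, the additive edgeR model called 10 lower on stiff matrix (background 3.29%) and 0 higher (background 2.35%). The 10 include Il1a and Il1b, which entered the test through the soft libraries and had to differ. The cytokine gene Il6 had 3.70 CPM in stiff with A83-01 and 6.78 CPM in stiff, against 35.3 CPM in soft with A83-01 and 43.6 CPM in soft. Cebpb, the gene of a C/EBP factor, had 59.0 CPM in stiff with A83-01 and 31.9 CPM in stiff, against 290 CPM in soft with A83-01 and 320 CPM in soft. Ifng had 0 counts in every library, and Stat3, the most abundant gene of the list by CPM in both stiff libraries, stood at 304 to 328 CPM in all 4. On stiff matrix, 0 of the 17 were at least 2-fold higher with A83-01 (background 7.8%) and 1 was at least 2-fold lower (background 4.47%). Of 9 fibroblast markers 2 fell on stiff matrix, Pdgfra and Dcn (background 3.29%), and 0 rose (background 2.35%). Pdgfra had 241 CPM in stiff with A83-01 and 198 CPM in stiff, against 931 CPM in soft with A83-01 and 1054 CPM in soft. The proteoglycan gene Dcn had 5279 CPM in stiff with A83-01 and 1442 CPM in stiff, against 21955 CPM in soft with A83-01 and 11520 CPM in soft. The 9 fibroblast markers in the table summed to 42132 CPM in stiff with A83-01 and 125159 CPM in stiff, against 48869 CPM in soft with A83-01 and 69306 CPM in soft, mostly from collagen genes. The 9 adipocyte markers summed to 85.6 CPM in stiff with A83-01 and 36.1 CPM in stiff, against 108 CPM in soft with A83-01 and 74.4 CPM in soft, the same order of libraries as for Cfd. Cebpa, also counted among the factors above, fell on stiff matrix. Plin1 was called lower too, but entered the test through the soft libraries and had to differ. Of their defining genes, Adipoq had 0.252 CPM in stiff with A83-01 and 0 in stiff, against 1.49 CPM in soft with A83-01 and 1.97 CPM in soft, and Lep had counts in stiff alone. Of 10 pericyte markers 4 rose on stiff matrix, Acta2, Des, Myh11 and Rgs5 (background 2.35%), and the list summed to 7489 CPM in stiff with A83-01 and 8034 CPM in stiff, against 2174 CPM in soft with A83-01 and 2901 CPM in soft. Of 10 endothelial markers Plvap and Vwf fell (background 3.29%), and the list summed to 2515 CPM in stiff with A83-01 and 1452 CPM in stiff, against 1866 CPM in soft with A83-01 and 1840 CPM in soft. The part of these cells and signals in the complement values was not tested.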

How the data were processed

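Messenger RNA of 4 libraries, 1 in each group, was sequenced from both fragment ends (DNBSEQ-T7), per the labels' protocols. The authors deposited whole-number read counts per gene, not normalised, and FPKM values of the same genes, which they scaled by length and library size. Per the submitters' processing notes, HISAT2, edgeR and the build Rnor_6.0 were used; the labels give no counter, annotation or version. FPKM served to compare genes and the counts for everything else.

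Genes with at least 1 TMM-scaled CPM in at least 1 library were tested (13634), which 8 of 9 members reached. Log2 ratios used a prior count of 2; folds and their 95% conditional binomial (Clopper-Pearson) intervals used the counts, and a floor of 3 counts stood in for 0. A gene was at least 2-fold apart when its log2 ratio reached 1 in size and the interval excluded equality. The additive models used edgeR 4.0.16 in R 4.3.3, called at an adjusted p of 0.05, and were run on simulated data. The simulated data had less spread than these libraries and no gap between A83-01 ratios, so they do not show the error rates here. DESeq2 1.42.0 and limma 3.58.1 were alternatives. Whether the libraries came from separate cultures or animals is not stated. With 1 library in each group, the residual of the additive model is the gap between the A83-01 ratios on stiff and soft matrix. Technical spread is mixed into that gap. In edgeR's test the error term of a gene also draws on the residuals of the other genes tested. The p-values therefore do not measure spread between replicates, and a larger gap widens the SE of a gene. No 2 libraries held identical counts.

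The members and the lists (further complement genes, macrophage, adipocyte, fibroblast, pericyte and endothelial markers, cytokines and factors, TGF-beta targets) were chosen with earlier results of these data known. All members were named, as were further complement genes with at least 10 CPM in a library or a call, except what is not reported here. Promoters came from RefSeq (GRCr8); the counts rest on another build.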

Additional observations from a re-analysis of the deposited data

Results flagged for a closer look

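For 5 complement genes the direction differed between 2 settings of the other factor, with counting intervals on opposite sides of equality; none of these differences was tested, since each group has 1 library. The log2 ratio of A83-01 over none was 2.83 on stiff and −0.85 on soft matrix for C3, 3.80 and −0.32 for C4a, and 1.10 and −0.74 for Masp1, each given for stiff and then soft matrix. The log2 ratio of stiff over soft was 0.91 with A83-01 in both libraries and −3.21 without for C4a, and 0.86 with A83-01 and −3.40 without for C4b. C4a and C4b are near-identical copies whose separate counts are uncertain. Their sum was higher with A83-01 on both matrices, 21.3-fold on stiff (18.4 to 24.9) and 1.17-fold on soft (1.10 to 1.24). Between matrices the sum did differ in direction, 1.84-fold higher on stiff with A83-01 in both libraries and 9.95-fold lower without. For the surface regulator Cd59 the log2 ratio of stiff over soft was 0.24 with A83-01 and −0.34 without.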

How the results depend on the processing

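The counts of members at least 2-fold apart in the 4 library pairs were the same with DESeq2's size factors, total counts, a prior count of 0.5 and the authors' FPKM. With total-count scaling the median log2 ratio of all genes was −0.23 in stiff against soft and 0.31 in stiff with A83-01 against stiff. With TMM these medians were 0.00 and 0.02. For stiffness, the quasi-likelihood test called 0 members up and 3 down, against 1 and 7 with total counts, 1 up without the filter, 1 and 5 by DESeq2 and 0 down without the inhibitor in the model. Over all genes it called 320 up and 449 down, against 623 and 1135 with total counts, 574 and 737 by DESeq2, and 13 and 17 without the inhibitor. For A83-01, it called 0 members up, against 5 with total counts and 2 by DESeq2. Over all genes it called 0 up and 6 down, against 565 and 270 with total counts, 219 and 244 by DESeq2, 10 and 17 without the filter, 3 down by limma-voom, and 0 down both with DESeq2's size factors and without stiffness in the model. The additive A83-01 difference of C3 reversed to −0.82 without stiffness in the model. At least 2-fold higher were 727 genes in stiff against soft and 484 by FPKM. In stiff with A83-01 against stiff, 1064 were higher and 609 lower, against 1656 and 393 with total counts and 358 lower by FPKM. The cause was not tested. Leaving out 1 library leaves no residual, so the additive stiffness difference becomes that of 1 pair: −9.18 to −5.50 for C3, −4.14 to −2.56 for Cfb and −2.14 to −1.40 for Cfd. No paired analysis was possible because each group has 1 library. C1qa and C1qb, at most 58 counts, are limited by depth.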
